A study of Mus musculus with 9 samples.

Results

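The genes described here are the mouse translation initiation and elongation factors, the proteins that start and extend polypeptide chains on the ribosome. They were taken as every protein-coding row whose symbol begins with Eif1 to Eif6, Eef1 or Eef2. Symbols beginning with Eif2ak, Eif4ebp, Eif4enif or Eef2k, which name kinases and binding proteins that act on the factors, were left out. The rule gave 57 genes of the 35771 rows of the table. Of these, 55 had enough counts to be tested. Eif4e1b (means of 1.29 ± 0.0814, 0.607 ± 0.351 and 0.661 ± 0.458 CPM, counts scaled to a common library total, in the uninduced, no extra copy and 2 extra copies groups described below) and Eef1akmt3 (at most 0.877 CPM in any library) did not.

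In the textbook scheme, eIF2 with GTP brings the initiator tRNA to the small ribosomal subunit, and eIF2B recharges eIF2 with GTP. The eIF3 complex, eIF1 and eIF1A prepare the subunit, while eIF4E binds the mRNA cap and joins the scaffold eIF4G and the helicase eIF4A. After start site recognition, eIF5 and eIF5B lead to subunit joining, and eEF1A and eEF2 then drive each round of elongation. Myc is a transcription factor that binds DNA with its partner Max at the E-box CACGTG, and genes for protein synthesis are among its best known targets. In embryonic stem cells (ESCs), cells with more Myc are known to outcompete neighbours with less.

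RNA was sequenced from mouse ESCs of mixed background that carried the iMOS T1-Myc allele on both homologues together with RERT, a tamoxifen-dependent Cre driver. Every group shared this genotype, and growth was on gelatin with LIF. Induced cultures received 20 µM 4-hydroxytamoxifen for 24 h, which leaves a mosaic of cells with different numbers of additional Myc and EYFP copies. After another 24 h without drug, cells were sorted by EYFP level, and the cells with 2 extra copies and those with no extra copy were kept, so both induced groups came from mosaic cultures and had been exposed to the drug. The control was sorted from uninduced cultures of this line, although the protocol field of their labels repeats the drug treatment. Each group had 3 libraries, and the design text calls them biological replicas without saying if they were separate cultures, so p-values measure only the spread between these libraries. How many clones the line comprises is not stated, and Myc in the allele is an added copy under a promoter that the labels do not name. In these bulk libraries, fewer cells of a type and less RNA per cell cannot be told apart.

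Library totals ran from 4165286 to 8872303 rounded expected counts. Each pair of replicates was farther apart than sampling noise allows (chi-square per degree of freedom 1.35 to 3.02), and replicate 1 with 2 extra copies was farthest from its group, at 2.67 and 3.02. Myc itself stood at 11.5, 14.1 and 14.2 CPM in uninduced cells, 31.8, 30.6 and 32.4 with no extra copy, and 138, 147 and 141 with 2 extra copies. It was highest in the group labelled with 2 extra copies (4.52-fold above no extra copy). The cells with no extra copy also had 2.36-fold more Myc than uninduced cells (log2 1.24, SE 0.096, adjusted p = 1.1e-11), a step that their label of no extra copy does not give. For uninduced cells the labels state no copy number. All 8 markers of ESCs were present, with summed levels of 3316 to 3365 CPM in uninduced cells, 3525 to 3590.4 without an extra copy and 3253 to 3430 with 2 extra copies. Markers of fibroblast feeder cells summed to 183 to 198, 326 to 358 and 229 to 245 CPM in the same order of groups, and none of the 8 was at 0 in every library. The level also drifted with transcript length, with a slope per doubling of length of 0.0161 to 0.0451 (log2) in uninduced libraries, -0.00265 to 0.0164 without an extra copy and -0.0564 to 0.00559 with 2 extra copies.

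Levels were first compared between the genes, which needs a scale per length: counts per kilobase of the longest annotated protein-coding transcript, scaled to a common total in each library. On this scale Eef1a1, which delivers aminoacyl-tRNA to the ribosome, was the most abundant factor, with a mean of 13723 over the 9 libraries. Eef2, the translocase, followed at 2853 and the helicase Eif4a1 at 2808. Next came Eef1g at 2061, Eif5a at 1963 and Eef1b2 at 1465, so 4 of the 6 most abundant factors are eEF genes. The means of the eIF3 subunits lay between 157 (Eif3j2) and 736 (Eif3k), except Eif3j1 at 7.42. The cap-binding protein Eif4e, at 89.9, lay below its helicase partner Eif4a1 and its scaffold Eif4g1 (388). The tissue-restricted paralogues were near the bottom, with Eif5a2 at 9.21, Eef1a2 at 1.64 and the oocyte form Eif4e1b at 0.878. Several abundant factors have close copies elsewhere in the genome (Eef1a1, Eef1g, Eif3e, Eif3h, Eif3m, Eif4a1 and Eif4a3). Only the copies Gm5580 and Gm8994 of Eif4a3 have rows of their own. Reads from the other copies may have been counted in these genes, whose levels are uncertain to that extent. Eif3j2 is a close copy of Eif3j1, and the split of reads between them is uncertain, as described below.

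**Figure D1:**
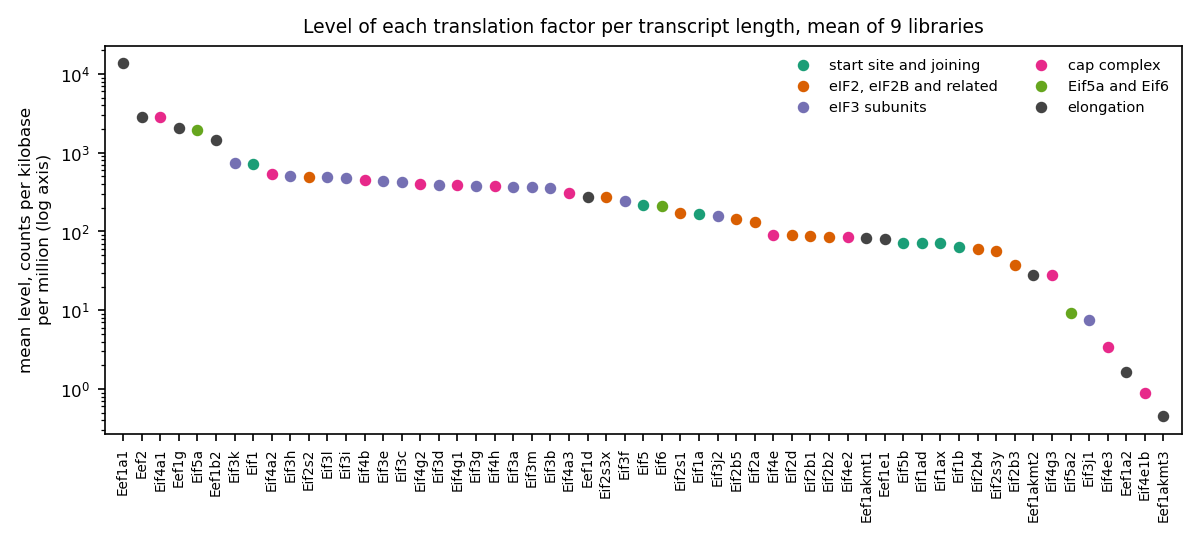
Mean level of each of the 57 factors over 9 libraries (points), in counts per kilobase of transcript scaled to a common library total, on a log axis, ordered from high to low and coloured by role. Eef1a1 at 13723 stands above all others, and Eef1akmt3 is lowest at 0.455.

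Promoter sequence was examined because the E-box is the known recognition motif of Myc and Max. RefSeq start sites on GRCm38.p6 were matched by symbol for 43 of the 57 genes, each with a window of 300 bases, 250 before the start and 50 after. The letters CACGTG, which read the same on both strands, occurred in a window of 11 of these 43 genes (25.6%), against 8.09% of 27025 genes of the RefSeq table. The 11 were Eef2, Eif1b, Eif3a, Eif3f, Eif3k, Eif4a1, Eif4e, Eif4g1, Eif4h, Eif5a and Eif5a2. The letters TATAAA on either strand occurred in 5 of 43 (11.6%), against 15.7%. Both backgrounds include genes without enough counts to be tested here, and the shares among tested genes were not computed. From the 11 with CACGTG, 3 abundant factors are shown here by the 250 bases before a start site, none of which is annotated as exon, with CACGTG in capitals. In Eef2 (chr10:81176381-81176630, plus strand) it begins 43 bases before the start, in Eif4a1 (chr11:69672424-69672673, minus strand) 189 bases before and in Eif5a (chr11:69921387-69921636, minus strand) 74 bases before. Eif5a has several annotated starts, and the window shown lies inside the gene (69916714 to 69921958), downstream of its outermost start. The window at that outermost start (chr11:69921959-69922208) has no CACGTG.
Eef2: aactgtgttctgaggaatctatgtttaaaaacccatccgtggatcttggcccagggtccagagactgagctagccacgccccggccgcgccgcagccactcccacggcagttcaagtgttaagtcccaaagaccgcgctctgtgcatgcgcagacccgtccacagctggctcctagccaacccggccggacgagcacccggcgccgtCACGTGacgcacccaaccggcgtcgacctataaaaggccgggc
Eif4a1: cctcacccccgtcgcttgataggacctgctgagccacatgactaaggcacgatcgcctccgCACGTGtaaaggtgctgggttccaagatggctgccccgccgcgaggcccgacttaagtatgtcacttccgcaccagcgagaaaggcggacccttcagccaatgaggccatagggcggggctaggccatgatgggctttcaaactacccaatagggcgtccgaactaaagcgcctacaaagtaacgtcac
Eif5a: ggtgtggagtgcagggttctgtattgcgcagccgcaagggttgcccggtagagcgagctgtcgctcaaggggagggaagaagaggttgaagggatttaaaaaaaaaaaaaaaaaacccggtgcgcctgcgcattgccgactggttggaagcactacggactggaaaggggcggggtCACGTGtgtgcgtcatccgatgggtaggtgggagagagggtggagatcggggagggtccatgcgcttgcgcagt
Eif4e had 2 such motifs in a single window, 228 and 64 bases before a start site, in bases that are annotated as exon of the gene from another start. Only the 30 bases around each are shown, at chr3:138527028-138527057 and chr3:138527192-138527221 on the plus strand.
Eif4e, upstream motif: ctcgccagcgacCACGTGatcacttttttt
Eif4e, downstream motif: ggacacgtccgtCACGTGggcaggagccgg
A letter match is a description and not a measured binding site. Of the 11 genes with the motif, 4 were called higher with 2 extra copies than with none (median log2 change 0.10), and of the 32 with a window but no motif, 17 were called higher (median 0.14). Of the genes shown, Eef2, Eif5a and Eif4e are among those called higher in that comparison and Eif4a1 is not.

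The first comparison set cells with 2 extra copies of Myc against mosaic culture cells that had gained none. These groups also differ in EYFP copies and in the cell type markers given below, which cannot be told apart from Myc dose here. Translation factors were slightly but broadly higher with 2 extra copies. Of the 55 tested, 25 rose and 0 fell (45.5%), while among all 13424 genes tested 16.0% were called in either direction, 8.30% higher and 7.70% lower. At an unadjusted p below 0.05 in edgeR 36 factors passed, all with a positive change, against 28.5% of all genes in either direction. DESeq2 and limma-voom called 20 and 25 factors higher and 0 lower. Over all genes DESeq2, run without the filter on low counts, called 612 higher and 328 lower, and limma-voom 1099 and 1035. The changes were small: the greatest among called factors was 1.25-fold (Eef1e1), and the median log2 change was 0.109, against -0.012 over all genes. The fitted change was above 0 for 54 of the 55 factors (98.2%), against 47.7% of all genes. The exception was Eif3j1, at -0.12 with an adjusted p of 0.572. In 33 factors all 3 libraries with 2 extra copies lay above all 3 with none (60.0%, against 15.4% of all genes), and in 0 they lay below (15.2% of all genes).

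Called rises were found in every role. With 2 extra copies against none, 3 of 7 of the start site and joining group rose, 5 of 11 of eIF2, eIF2B and related factors, and 8 of 14 eIF3 subunits. So did 4 of 11 of the cap complex, 1 of 3 of Eif5a, Eif5a2 and Eif6, and 4 of 9 of the elongation group. The elongation group includes Eef1e1, of the multi-synthetase complex, and the methyltransferases Eef1akmt1 and Eef1akmt2. Eif1ad, named for its eIF1A domain, is in the start site group. Eef1e1 and Eif1ad are among the genes that rose. The share of all counts held by the factors other than Eef1a1 was 2.44%, 2.43% and 2.42% in the libraries without an extra copy and 2.50%, 2.61% and 2.60% with 2 extra copies, without overlap. In uninduced libraries that share was 2.41%, 2.43% and 2.43%. With Eef1a1 included the share was 3.54%, 3.52% and 3.5% without an extra copy and 3.54%, 3.72% and 3.74% with 2 extra copies. The induced groups then met at 3.54%. Uninduced libraries, at 3.56%, 3.64% and 3.64%, lay within the range with 2 extra copies. Replicate 1 with 2 extra copies was thus the lowest of its group. Without it 37 factors rose, and without replicate 2 of that group 15 did. All genes moved likewise, with 1466 higher and 1098 lower without replicate 1 and 821 and 732 without replicate 2. With scaling by library size alone 15 rose and 0 fell, and over all genes 774 were then called higher and 1360 lower, in place of 1114 and 1034. Of the 25 calls, 13 held under every one of the 18 alternative settings. Of the others, Eef2 and Eif5 held in 17, Eif3g and Eif4g3 in 14, Eef1b2, Eif2b5, Eif3a, Eif3d, Eif3m, Eif4g2 and Eif5a in 13, and Eif2b1 in 11.

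Cell type markers also changed in this comparison. Of 8 ESC markers 4 were lower and 0 higher with 2 extra copies than with none, and of 8 feeder markers 5 were lower. Of the 5 tested endoderm markers 4 were lower, of the 4 tested trophectoderm markers 3, and of 4 neuroectoderm markers 4. Sox17, Sox7 and Elf5, which help define endoderm and trophectoderm, were below 1 CPM in every library. The part of these markers in the rise of the factors was not tested. With the length drift removed, 28 factors rose and 0 fell, and over all genes 1364 were then higher and 951 lower.

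**Figure D2:**
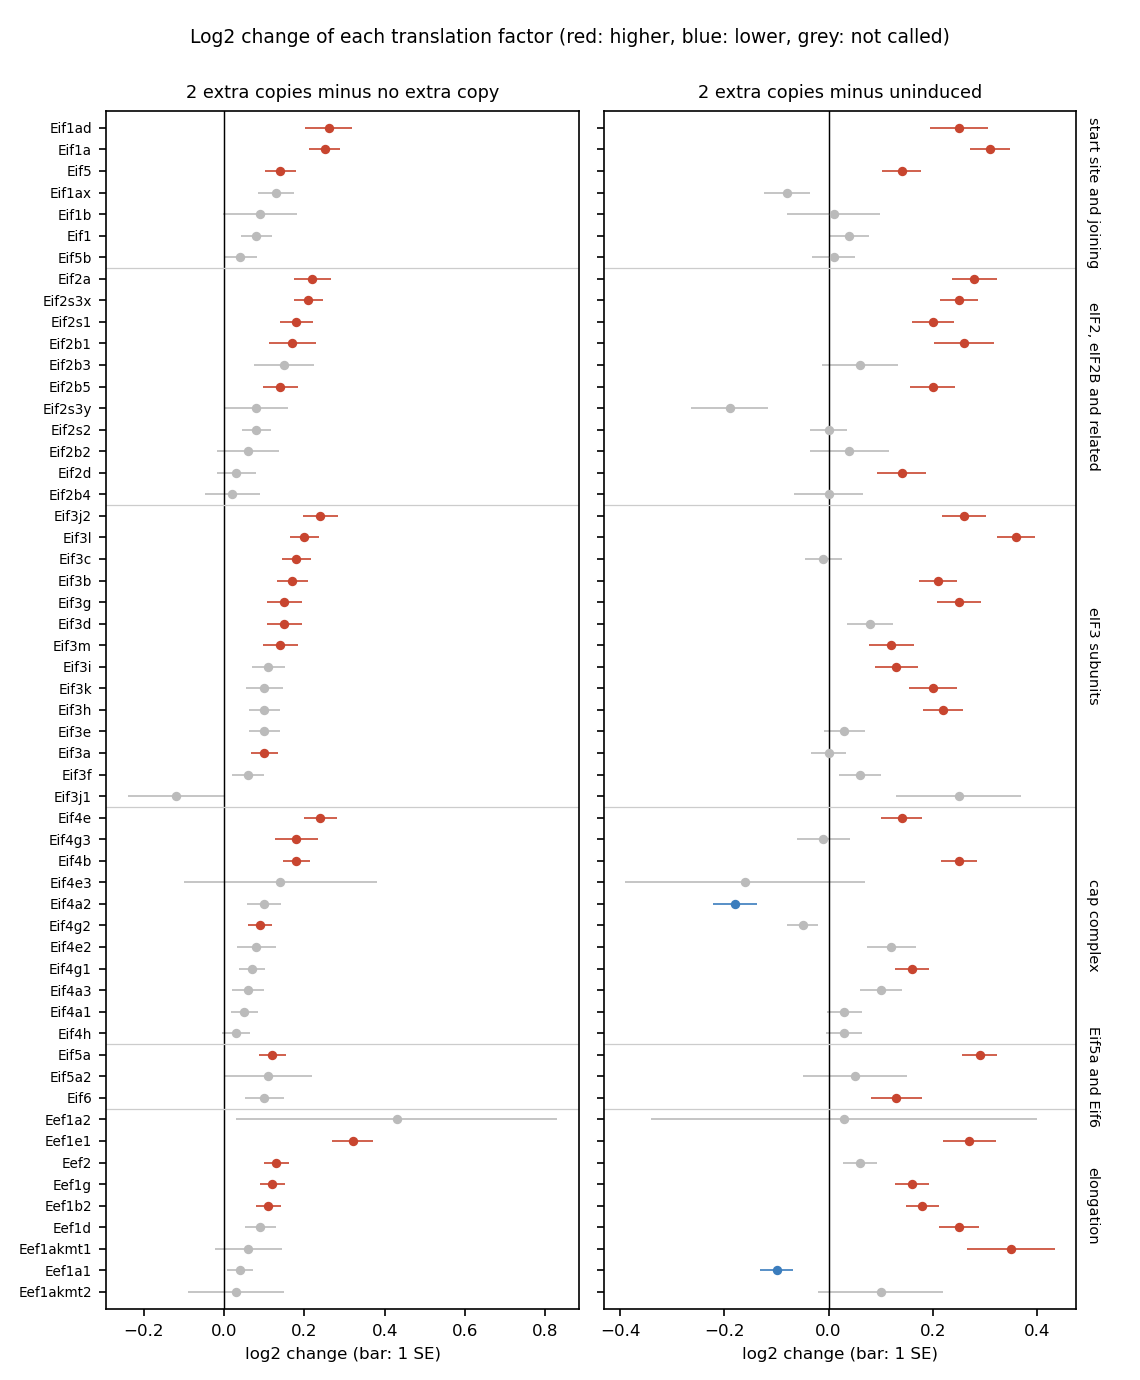
Log2 change (points, with 1 SE) of the 55 tested factors, grouped by role, for 2 extra copies minus no extra copy (left) and minus uninduced (right), with red for called higher, blue for called lower and grey for not called. On the left 54 of 55 points lie above 0, and on the right Eif4a2 and Eef1a1 are called lower.

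Cells with 2 extra copies were next compared with uninduced cells, which shares the libraries with 2 extra copies with the comparison above. Here 27 of 55 factors rose and 2 fell (52.7%), against 25.0% of all genes called, 12.8% higher and 12.1% lower. At an unadjusted p below 0.05, 32 factors passed (36.5% of all genes). The median log2 change was 0.122, against -0.014 over all genes, and the fitted change was above 0 for 45 factors (81.8%, against 47.5%). Groups did not overlap in 29 factors in the higher direction (background 19.1%) and in 5 in the lower (background 19.4%). The greatest rise was that of Eif3l, 1.29-fold, and the factors that fell were Eif4a2 and Eef1a1. Of the rises 21 of 27 held under all 18 alternatives. The fall of Eif4a2 did too, whereas that of Eef1a1 was lost in 6 of them, including DESeq2, limma-voom and the fit without uninduced replicate 2. In this comparison 5 of 8 feeder markers and 2 of 4 tested trophectoderm markers were higher, 1 ESC marker was higher and 1 lower, and 2 endoderm and 2 neuroectoderm markers were lower. Their part in the result was not tested.

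Cells with no extra copy were finally compared with uninduced cells, a comparison of sorted cells of induced and uninduced cultures. The labels state no extra copy for the former and give no copy number for uninduced cells. Myc mRNA was 2.36-fold higher in the cells from induced cultures, as given above, and its part in these changes was not tested. The factors were split between directions. There were 7 that rose and 8 that fell (27.3%), against 13.5% of all genes called, 7.10% higher and 6.39% lower. The median log2 change was 0.000, against 0.002 over all genes, and the fitted change was above 0 for 28 of 55 (50.9%, against 50.4% of all genes). Groups did not overlap in 10 factors in the higher direction (background 16.1%) and 11 in the lower (15.4%). The rises were in Eef1akmt1, Eef1d, Eif3h, Eif3j1, Eif3l, Eif4g1 and Eif5a, and the falls in Eef1a1, Eif1ax, Eif2s3y, Eif3a, Eif3c, Eif4a2, Eif4g2 and Eif4g3. This count changed with the libraries used: 8 factors were called without replicate 3 with no extra copy (3 higher, 5 lower) and 9 without uninduced replicate 1 (3 higher). Without replicate 2 with no extra copy 4 were higher. DESeq2 called 9 (3 higher, 6 lower). All genes lost calls as well, from 953 higher and 858 lower in the main fit. They gave 728 and 666 without replicate 3 with no extra copy and 653 and 621 without uninduced replicate 1. Without replicate 2 with no extra copy they gave 622 and 555, and with DESeq2 325 and 363. Eef1d, Eif3l and Eif5a (higher) and Eif1ax, Eif3c, Eif4a2 and Eif4g2 (lower) held under all 18 alternatives. Feeder markers were higher in 6 of 8 with no extra copy than in uninduced cells, and ESC markers higher in 4 and lower in 1 of 8, and their part in these changes was not tested.

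**Figure D3:**
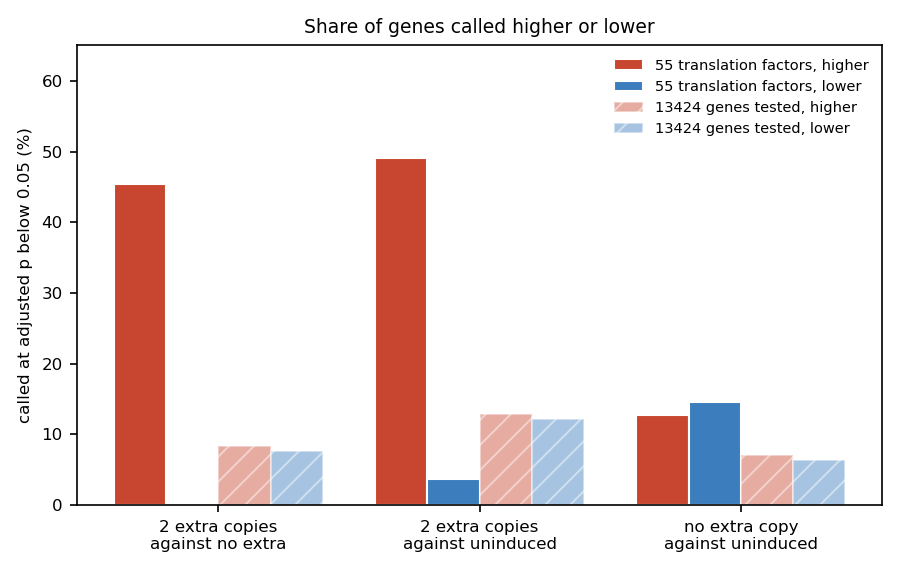
Share of the 55 translation factors (solid bars) and of all 13424 genes tested (hatched bars) called higher (red) or lower (blue) at an adjusted p below 0.05 in each of the 3 comparisons, on an axis from 0. With 2 extra copies against none, 45.5% of the factors and 8.30% of all genes are higher.

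Among the factors that select the start site, the eIF1A genes were called in different comparisons, and the difference between them was not tested. Eif1a (ENSMUSG00000057561; chromosome 18, 46597701 to 46616456) had 196, 203 and 199 CPM in uninduced libraries, 206, 211 and 207 without an extra copy and 247, 248 and 247 with 2 extra copies. The libraries with 2 extra copies agreed closely with each other and lay above all others. Eif1a rose 1.19-fold against no extra copy (log2 0.25, SE 0.039, adjusted p = 1.98e-05) and 1.24-fold against uninduced cells (log2 0.31, SE 0.038, adjusted p = 2.09e-07). Its X-linked paralogue Eif1ax (ENSMUSG00000067194; chromosome X, 159372178 to 159389928) had 173, 188 and 175 CPM in uninduced cells, 151, 160.3 and 151 without an extra copy and 167, 168 and 171 with 2 extra copies. Eif1ax was thus lowest with no extra copy, 1.16-fold below uninduced cells (log2 -0.21, SE 0.044, adjusted p = 0.000905). Its difference between the induced groups missed the threshold (log2 0.13, SE 0.045, adjusted p = 0.0525).

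Eif1ad (ENSMUSG00000024841; chromosome 19, 5366741 to 5371526), named for its eIF1A domain, had 78.2, 80.9 and 76.2 CPM in uninduced cells, 77.5, 73.7 and 85.3 without an extra copy and 94.5, 94.3 and 90.7 with 2 extra copies. All 3 libraries with 2 extra copies lay above the rest, and the gene rose 1.19-fold against no extra copy (log2 0.26, SE 0.058, adjusted p = 0.00192). Exons of Banf1 on the other strand cover 15.3% of its exonic bases, so its counts may include reads of that gene. Eif1 (ENSMUSG00000035530; chromosome 11, 100319885 to 100322096), which guards the fidelity of start codon choice, had 427, 450.1 and 437 CPM in uninduced cells, 428, 414 and 429.6 without an extra copy and 434, 442 and 471 with 2 extra copies. Its libraries with 2 extra copies lay above those with none, but the change was not called (log2 0.08, SE 0.038, adjusted p = 0.135). Eif5, the GTPase-activating protein for eIF2, rose 1.10-fold in both comparisons of 2 extra copies (adjusted p = 0.00914 and 0.00669). Eif1b (log2 0.09) and the joining factor Eif5b (log2 0.04) were not called between the induced groups.

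Within eIF2, the subunits did not all pass the test. Eif2s1 (ENSMUSG00000021116; chromosome 12, 78861819 to 78887010), the alpha subunit that stress kinases phosphorylate, had 249.8, 251 and 254 CPM in uninduced cells, 264, 250.3 and 254 without an extra copy and 291, 275 and 303 with 2 extra copies. Its libraries with 2 extra copies lay above all 6 others, and it rose 1.13-fold against no extra copy (log2 0.18, SE 0.041, adjusted p = 0.00203) and 1.15-fold against uninduced cells (log2 0.20, SE 0.04, adjusted p = 0.000245). The beta subunit Eif2s2 was not called in any comparison (log2 0.08 between the induced groups, adjusted p = 0.114). The X-linked gamma subunit Eif2s3x had means of 422 ± 7.82 CPM in uninduced cells, 434 ± 13.9 without an extra copy and 500.2 ± 12.9 with 2 extra copies (SD, n = 3 each), and rose 1.15-fold and 1.19-fold against those groups (adjusted p = 0.000137 and 4.65e-06).

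The Y-linked gamma subunit Eif2s3y (ENSMUSG00000069049; chromosome Y, 1010543 to 1028847) had 54.1, 55.5 and 50 CPM in uninduced cells, 44, 47.5 and 37.9 without an extra copy and 48.6, 44.6 and 46.5 with 2 extra copies. All induced libraries lay below the uninduced ones. The fall passed the test with no extra copy (log2 -0.28, SE 0.075, adjusted p = 0.00974) and not with 2 (log2 -0.19, SE 0.074, adjusted p = 0.0518). Eif2a (ENSMUSG00000027810; chromosome 3, 58525821 to 58557501), an alternative carrier of initiator tRNA that is distinct from the eIF2 alpha subunit, had 124, 128 and 132 CPM in uninduced cells, 132, 135 and 133 without an extra copy and 156, 154 and 157 with 2 extra copies. It stood clearly above both other groups with 2 extra copies, by 1.16-fold (log2 0.22, SE 0.045, adjusted p = 0.000627) and 1.22-fold (log2 0.28, SE 0.044, adjusted p = 9.9e-06). Of the 5 subunits of the exchange factor eIF2B, Eif2b1 and the catalytic subunit Eif2b5 rose in both comparisons, by 1.13-fold and 1.10-fold between the induced groups (adjusted p = 0.0397 and 0.0217). Between the induced groups the DESeq2 fit called neither. Eif2b2, Eif2b3 and Eif2b4 were not called in any comparison, with log2 values of 0.06, 0.15 and 0.02 between the induced groups. Eif2d, which can place initiator tRNA without eIF2, rose with 2 extra copies against uninduced cells (log2 0.14, adjusted p = 0.022), while its log2 change between the induced groups was 0.03 and was not called.

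The eIF3 complex, the scaffold on the small subunit, had 8 of 14 members higher between the induced groups (Eif3a, Eif3b, Eif3c, Eif3d, Eif3g, Eif3j2, Eif3l and Eif3m), of which Eif3b, Eif3c, Eif3j2 and Eif3l held under all 18 alternatives. Eif3l (ENSMUSG00000033047; chromosome 15, 79075179 to 79094405) had 376, 385 and 398 CPM in uninduced cells, 440.0, 428 and 427 without an extra copy and 480.0, 500.1 and 508 with 2 extra copies. Its 3 groups did not overlap in any comparison and stepped up in that order, and it was called in each (log2 0.16 for no extra copy against uninduced cells, 0.20 between the induced groups and 0.36 for 2 extra copies against uninduced cells, with adjusted p = 0.00243, 0.000182 and 4.26e-09). Eif3c (ENSMUSG00000030738; chromosome 7, 126546455 to 126566411), a core subunit, had 678, 699 and 679 CPM in uninduced cells, 594, 607 and 613 without an extra copy and 645, 704 and 699 with 2 extra copies. Eif3c was therefore lowest with no extra copy in every library. It was 1.13-fold below uninduced cells there (log2 -0.18, SE 0.036, adjusted p = 0.000493) and 1.13-fold higher with 2 extra copies (log2 0.18, SE 0.036, adjusted p = 0.000739), while 2 extra copies and uninduced cells were not called apart (log2 -0.01, adjusted p = 0.933).

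Eif3a, the largest core subunit, was likewise lowest with no extra copy (log2 0.10 between the induced groups, adjusted p = 0.0287, and -0.11 for no extra copy against uninduced cells, adjusted p = 0.0248). Eif3b and Eif3g, which form a module with Eif3i, rose 1.13-fold and 1.11-fold between the induced groups and 1.16-fold and 1.19-fold against uninduced cells. Eif3h, Eif3i and Eif3k were called higher with 2 extra copies than in uninduced cells (log2 0.22, 0.13 and 0.20) and were not called between the induced groups (log2 0.10, 0.11 and 0.10). Eif3e and Eif3f were called in no comparison. Eif3d shares 43.3% of its exonic bases with an antisense gene, which had 141 counts over all libraries. Eif3d itself had 1420 to 2856 counts per library. The part of this overlap in the rise of Eif3d (log2 0.15, adjusted p = 0.022) was not tested.

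The eIF3j genes need to be read together, since Eif3j2 matches the transcript of Eif3j1 at 99.4% identity over its whole length. Eif3j2 (ENSMUSG00000043424; chromosome 18, 43475418 to 43477796) had 161, 161 and 160.2 CPM in uninduced cells, 166, 165 and 155 without an extra copy and 189, 185 and 201 with 2 extra copies, a 1.18-fold rise against no extra copy (log2 0.24, SE 0.044, adjusted p = 0.000182). Eif3j1 (ENSMUSG00000027236; chromosome 2, 122028546 to 122056598) had 14.8, 18.3 and 14.6 CPM in uninduced cells, 16.8, 23.2 and 20.7 without an extra copy and 18.8, 18.8 and 19.3 with 2 extra copies, and was called only for no extra copy against uninduced cells (log2 0.36, SE 0.12, adjusted p = 0.0393), where its groups overlap. Eif3j1 had 87 to 208 counts per library. Exons of Spg11 on the other strand, a gene with 3638 counts over all libraries, cover 19.0% of the exonic bases of Eif3j1. The counts of Eif3j1, and the sum given next, may thus include reads of Spg11. The division of reads between Eif3j1 and Eif3j2 is uncertain. Their sum, which does not depend on it, was 176, 179 and 175 CPM in uninduced cells, 183, 188.5 and 175 without an extra copy and 207, 204 and 220.2 with 2 extra copies, so the summed level was above both other groups in every library with 2 extra copies.

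In the cap complex, the cap-binding protein rose between the induced groups, and its partners Eif4a1 and Eif4g1 were not called there. Whether the genes differ from each other in their change was not tested. Eif4e (ENSMUSG00000028156; chromosome 3, 138526179 to 138559696) had 203, 196 and 208 CPM in uninduced cells, 189, 184 and 197 without an extra copy and 225, 219 and 227 with 2 extra copies. All 3 libraries with 2 extra copies lay above the other 6. Eif4e, whose motifs are printed above, rose 1.18-fold against no extra copy (log2 0.24, SE 0.041, adjusted p = 7.8e-05) and 1.11-fold against uninduced cells (log2 0.14, SE 0.04, adjusted p = 0.00777). The helicase Eif4a1 (ENSMUSG00000059796; chromosome 11, 69666936 to 69672423) had 2179.9, 2314 and 2319.8 CPM in uninduced cells, 2305, 2203 and 2209 without an extra copy and 2204, 2369.7 and 2398 with 2 extra copies. Its groups overlapped and it was called in no comparison (log2 0.05 between the induced groups, SE 0.034, adjusted p = 0.311).

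Its paralogue Eif4a2 (ENSMUSG00000022884; chromosome 16, 23107444 to 23114136) had 756, 737 and 706 CPM in uninduced cells, 647, 569 and 593 without an extra copy and 672, 653 and 620.3 with 2 extra copies. Every induced library lay below every uninduced one, and Eif4a2 fell 1.22-fold with no extra copy (log2 -0.28, SE 0.042, adjusted p = 2.62e-05) and 1.13-fold with 2 (log2 -0.18, SE 0.042, adjusted p = 0.00237). The scaffold Eif4g1 (ENSMUSG00000045983; chromosome 16, 20668313 to 20692884) had 926, 935 and 964 CPM in uninduced cells, 985, 1014 and 1017 without an extra copy and 1043, 1067 and 1051 with 2 extra copies. The groups of Eif4g1 stepped up without overlap, and it was called higher than in uninduced cells in both induced groups (adjusted p = 0.0454 without an extra copy and 0.000249 with 2 extra copies) but not between them (log2 0.07, adjusted p = 0.155). The call without an extra copy held in only 8 of 18 alternatives and not with DESeq2, whereas the call with 2 held in all 18.

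Eif4g2, a relative of the scaffold that does not bind eIF4E, had means of 1524 ± 6.11 CPM in uninduced cells, 1382 ± 15.5 without an extra copy and 1475 ± 6.1 with 2 extra copies. It was lower with no extra copy than in uninduced cells (log2 -0.14, adjusted p = 0.000947) and higher with 2 extra copies than with none (log2 0.09, adjusted p = 0.0261). Eif4g3 (ENSMUSG00000028760; chromosome 4, 137993022 to 138208508), another scaffold, had 113, 105 and 107 CPM in uninduced cells, 96.6, 95.4 and 90.3 without an extra copy and 106, 113 and 103 with 2 extra copies, and so was also lowest with no extra copy (log2 -0.19, SE 0.052, adjusted p = 0.0106). It rose 1.14-fold between the induced groups (log2 0.18, SE 0.053, adjusted p = 0.0155). Eif4b, which stimulates the helicase, rose 1.13-fold between the induced groups and 1.19-fold against uninduced cells (adjusted p = 0.000311 and 9.55e-07). Eif4h, with a related role, and Eif4a3, a core protein of the exon junction complex, were not called in any comparison. Eif4e2 and Eif4e3, other members of the cap-binding family, were not called either, and Eif4e3 had at most 4.62 CPM.

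**Figure D4:**
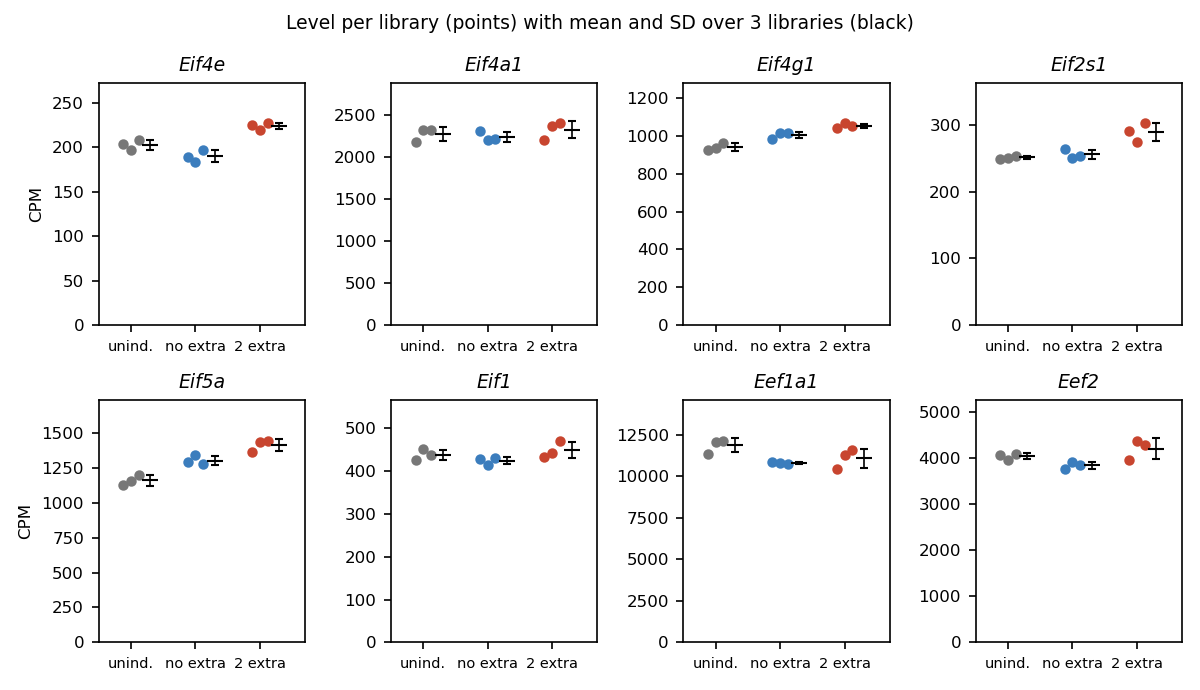
CPM of 8 factors in each library (points), with the mean and SD over 3 libraries in black, for uninduced cells, cells without an extra copy and cells with 2 extra copies, on axes from 0. In Eif4e and Eif2s1 all libraries with 2 extra copies lie above all others, while those of Eif4a1 and Eef1a1 overlap with the other groups.

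Eif5a (ENSMUSG00000078812; chromosome 11, 69916714 to 69921958), which carries hypusine and helps ribosomes through difficult stretches, had 1123, 1156 and 1199 CPM in uninduced cells, 1293, 1338 and 1274 without an extra copy and 1360.2, 1433 and 1444 with 2 extra copies. Its groups stepped up without overlap. Eif5a rose 1.12-fold from uninduced cells to no extra copy (log2 0.17, SE 0.034, adjusted p = 0.0006), 1.09-fold from there to 2 extra copies (log2 0.12, SE 0.034, adjusted p = 0.0139) and 1.22-fold in all (log2 0.29, SE 0.034, adjusted p = 8.79e-08). Its paralogue Eif5a2, at 18.3 to 23.3 CPM, was called in no comparison. Eif6, which keeps the large subunit from joining too early, was called higher only with 2 extra copies against uninduced cells (log2 0.13, adjusted p = 0.0426), a call that held in only 3 of 18 alternatives.

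Among elongation factors, Eef1b2 and Eef1g of the eEF1A exchange complex were called higher between the induced groups and the main eEF1A gene was not. Eef1a1 (ENSMUSG00000037742; chromosome 9, 78478449 to 78489151) had 11372, 12085 and 12151 CPM in uninduced cells, 10872, 10809 and 10722 without an extra copy and 10466, 11268 and 11557 with 2 extra copies. The induced groups overlapped and were not called apart (log2 0.04, SE 0.032, adjusted p = 0.457), and Eef1a1 was lower than in uninduced cells with no extra copy (log2 -0.14, SE 0.032, adjusted p = 0.00379) and with 2 (log2 -0.10, SE 0.032, adjusted p = 0.0254). Replicate 1 with 2 extra copies was the lowest of the 9 libraries for this gene, and without it the fall with 2 extra copies was no longer called. Eef1b2 and Eef1g belong to the complex that exchanges the nucleotide of eEF1A. They rose 1.08-fold and 1.09-fold between the induced groups (adjusted p = 0.0133 and 0.00654), and 1.13-fold and 1.12-fold against uninduced cells. Eef1d (ENSMUSG00000055762; chromosome 15, 75894205 to 75909556), another subunit of that complex, had 309, 322 and 336 CPM in uninduced cells, 369.6, 357 and 354 without an extra copy and 369.7, 386 and 391 with 2 extra copies. Eef1d was thus higher in both induced groups than in uninduced cells (log2 0.16 and 0.25, adjusted p = 0.00474 and 1.34e-05), and was not called between them (log2 0.09, adjusted p = 0.134).

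Eef1e1 (ENSMUSG00000001707; chromosome 13, 38644207 to 38659058), a scaffold of the multi-synthetase complex, had 91.2, 87.5 and 88.5 CPM in uninduced cells, 88.7, 84.9 and 85 without an extra copy and 103, 109 and 109.5 with 2 extra copies. Its libraries with 2 extra copies stood apart from the other 6, and it rose 1.25-fold against no extra copy (log2 0.32, SE 0.052, adjusted p = 4.44e-05). Eef2 (ENSMUSG00000034994; chromosome 10, 81176631 to 81182498), whose upstream sequence is printed above, had 4059, 3965 and 4099 CPM in uninduced cells, 3764, 3923 and 3849 without an extra copy and 3959, 4381 and 4288 with 2 extra copies. The libraries with 2 extra copies lay above those with none but overlapped with uninduced ones, and Eef2 rose 1.09-fold between the induced groups (log2 0.13, SE 0.032, adjusted p = 0.00426). Eef1akmt1 (ENSMUSG00000021951; chromosome 14, 57549597 to 57571612), a lysine methyltransferase of eEF1A, had 28.3, 29.5 and 28.5 CPM in uninduced cells, 35.2, 33.7 and 37.9 without an extra copy and 33.7, 37.4 and 38.7 with 2 extra copies. Both induced groups were above uninduced cells, by 1.22-fold (log2 0.29, SE 0.084, adjusted p = 0.0167) and 1.27-fold (log2 0.35, SE 0.084, adjusted p = 0.00208). Eef1akmt2 and the paralogue Eef1a2, at no more than 2.25 CPM, were called in no comparison.

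Where a pair of related genes serves the same step, the share of each in their summed CPM does not depend on the scaling between libraries. It can still carry the drift with transcript length, which was not removed from it. The lengths were 2865 and 5172 bases for Eif1a and Eif1ax, 2708 and 1774 for Eif4a2 and Eif4a1, and 1836 and 3647 for Eif2s3y and Eif2s3x. These pairs were chosen after their values were seen, so the shares are described without a test. Eif1a made up 53.1%, 51.9% and 53.3% of the summed Eif1a and Eif1ax counts in uninduced cells, 57.7%, 56.8% and 57.9% without an extra copy and 59.8%, 59.5% and 59.2% with 2 extra copies. The 3 groups did not overlap, and the share was highest with 2 extra copies. Eif4a2 made up 24.4 ± 1.22% of Eif4a1 and Eif4a2 in uninduced cells, 21.2 ± 0.701% without an extra copy and 21.8 ± 1.42% with 2 extra copies (SD, n = 3 each). The uninduced libraries lay above those without an extra copy and overlapped with those with 2. Eif2s3y made up 11.2 ± 0.50% of the gamma subunit counts in uninduced cells, 9.03 ± 0.899% without an extra copy and 8.52 ± 0.516% with 2 extra copies. Every uninduced library lay above every induced one.

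**Figure D5:**
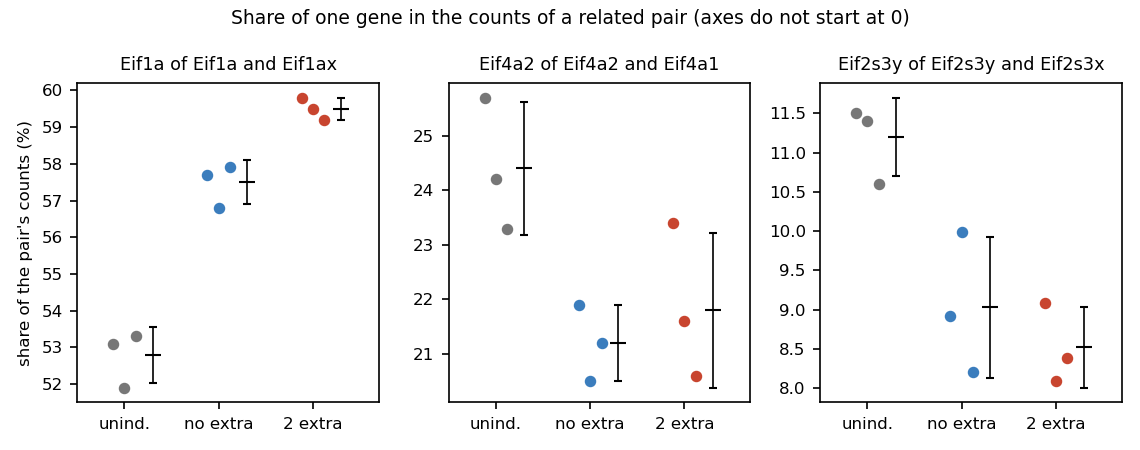
Share of 1 gene in the summed counts of a related pair, in percent, per library (points) with mean and SD (black), on axes that do not start at 0. Eif1a of Eif1a and Eif1ax lies between 51.9% and 53.3% in uninduced cells and between 59.2% and 59.8% with 2 extra copies. The share of Eif2s3y is lower in every induced library than in all uninduced ones. That of Eif4a2 has a lower mean in both induced groups, but uninduced libraries overlap with those with 2 extra copies.

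Other genes of the pathway came from 2 lists. The 24 regulators of initiation and elongation (eIF2 kinases and phosphatase subunits, eIF4E-binding proteins, the eEF2 kinase, MNK kinases, poly(A)-binding protein partners and the mTOR pathway) included 0 genes that rose and 1 that fell between the induced groups, the eIF4E kinase gene Mknk2 (log2 -0.17, SE 0.052, adjusted p = 0.0217). This call held in 13 of 18 alternatives and not with DESeq2. All genes were called at 16.0% in this comparison. At an unadjusted p below 0.05 in edgeR 7 of the 24 passed in either direction (28.5% of all genes did), and the median log2 change of the regulators was 0.010. Against uninduced cells, 2 regulators rose with 2 extra copies (the heme-regulated kinase Eif2ak1 and Paip2) and 4 fell, a share of 25.0% that equals the 25.0% of all genes. The falls were in the eIF2 phosphatase subunits Ppp1r15b (log2 -0.25, adjusted p = 1.98e-05) and Ppp1r15a (log2 -0.35, adjusted p = 0.000498), in Paip1 (log2 -0.26, adjusted p = 0.00605) and in Mtor (log2 -0.13, adjusted p = 0.0437). The value for Mtor turned to 0.02 with the length drift removed, and its call held in 4 of 18 alternatives. With no extra copy against uninduced cells, Mknk2 and Eif2ak1 rose and Ppp1r15b fell (12.5%, against 13.5% of all genes). DESeq2 called neither rise, and that of Eif2ak1 held in 12 of 18 alternatives.

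The 24 partners (poly(A) binding, termination, recycling, and the enzymes that modify eIF5A and eEF2) included 9 genes that rose and 0 that fell between the induced groups (37.5%, against 8.30% of all genes higher and 16.0% called). At an unadjusted p below 0.05 in edgeR 13 passed in either direction (28.5% of all genes), and their median log2 change was 0.131. Pabpc4, a cytoplasmic poly(A)-binding protein, rose from 481 ± 7.62 CPM with no extra copy to 576 ± 18.5 with 2 extra copies (log2 0.26, SE 0.036, adjusted p = 3.24e-06). Its better known relative Pabpc1 rose by a log2 of 0.16 (adjusted p = 0.000205), the recycling factor Denr by 0.25 (adjusted p = 0.000556) and Serbp1 by 0.13 (adjusted p = 0.00491). Against uninduced cells 9 partners rose with 2 extra copies and 0 fell (37.5%, against 25.0%), among them Pabpc4 (log2 0.33) and Dph2, an enzyme of the diphthamide of eEF2 (log2 0.44, adjusted p = 0.000143). With no extra copy against uninduced cells 0 partners rose and 1 fell, the ribosome rescue factor Hbs1l (log2 -0.15, adjusted p = 0.0391), which is 4.17% against 13.5% of all genes. At an unadjusted p below 0.05 in edgeR 3 passed in either direction (25.7% of all genes), and the call of Hbs1l held in 11 of 18 alternatives. Over both lists, the 10 calls between the induced groups became 6 with DESeq2 and 5 without replicate 2 with no extra copy. Over all genes 1114 higher and 1034 lower became 612 and 328, and 750 and 647, in these settings. The 4 list calls for no extra copy against uninduced cells became 1 with DESeq2, and 2 without uninduced replicate 1, uninduced replicate 2 or replicate 3 with no extra copy. All genes went from 953 higher and 858 lower to 325 and 363 with DESeq2. Without those 3 libraries they gave 653 and 621, 642 and 580, and 728 and 666, in that order.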

How the data were processed

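Per the labels, single-end sequencing at 75 bp was run on RNA from 9 sorted populations of mouse ESCs. The authors deposited a table of expected counts per gene, estimated with RSEM 1.17 on GRCm38, annotation release 84, per the submitters' processing notes and the file headers. Other tools in those notes are Picard, cutadapt and limma, whose use is not described, and the aligner and the use of strand are not given in the sources used here. RSEM splits multiply mapped reads, so near-identical copies with rows of their own can exchange counts. Only 101 rows are processed pseudogenes, and reads of a copy without a row may be counted in its parent gene.

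Expected counts were rounded. Symbols, coordinates and transcript lengths came from GENCODE M21 (GRCm38), which named 35432 of 35771 rows. After edgeR's filterByExpr by group, 13424 genes remained, holding 99.8% of counts. Group differences came from edgeR 4.0.16 and its quasi-likelihood F-test (TMM scaling, robust fit, R 4.3.3) over all 9 libraries with 1 coefficient per group. All adjusted p-values come from this test with Benjamini-Hochberg adjustment over all genes tested, and genes were called below 0.05. CPM were computed after TMM, and the SE was taken as the absolute log2 change over the root of F. Biological variation between replicates was 0.0394 (common coefficient). The fit was checked on simulated counts. Close copies were found with minimap2 2.31-r1302 (minimum 95% identity and 50% coverage). Alternatives were DESeq2 1.42.0, limma-voom (limma 3.58.1), other scaling, no filter, the library number as a block, removal of the trend over transcript length, and leaving out each library.

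The members and lists were chosen with earlier results of these data known. Every factor could be named. Values per library are given for Eif4e, Eif4a1, Eif4g1, Eif2s1, Eif5a, Eif1, Eef1a1 and Eef2 and for up to 5 called rises and 5 called falls of the greatest size per comparison, and up to 4 called genes per list and direction by p. Library numbers were not taken to pair the samples: deviations of same-numbered libraries correlated at -0.0972 to 0.278 over 9 pairs.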

Additional observations from a re-analysis of the deposited data

How the results depend on the processing

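Between the induced groups, 0 factors were lower in any of the 18 alternatives. With library size alone, 15 factors were called, all 15 higher, and their median log2 change was 0.074 in place of 0.109. Over all genes that scaling called 774 higher and 1360 lower. Leaving out each library gave 15 to 37 factors called and higher, 0 lower, and medians of 0.105 to 0.153. Over all genes these fits called 750 to 1466 higher and 647 to 1098 lower. For 2 extra copies against uninduced cells, leaving out each library gave 23 to 34 factors called, 22 to 32 higher, 1 to 3 lower and medians of 0.109 to 0.151. Over all genes these fits called 1306 to 2004 higher and 1106 to 1715 lower. Under DESeq2, limma-voom and DESeq2 size factors in edgeR, 1 factor was lower. Over all genes 645, 1662 and 1535 were lower under these settings. For no extra copy against uninduced cells leaving out each library gave 8 to 17 factors called, 3 to 7 higher, 5 to 10 lower and medians of -0.004 to 0.014. Over all genes these fits called 622 to 1083 higher and 555 to 1118 lower. DESeq2 called 9 factors, with 3 higher, and over all genes 325 higher and 363 lower. Calls in the regulator and partner lists ran over 5 to 12, 12 to 17 and 2 to 5 in the 3 comparisons without each library, and DESeq2 gave 6 in the first and 1 in the last. Among single genes, directions turned in Eif4g2 and Mtor for 2 extra copies against uninduced cells. Eif4g2 went from -0.05 to 0.09 with the length trend removed (adjusted p = 0.0463) and 0.08 with the replicate block as well (adjusted p = 0.0249). Mtor went from -0.13 to 0.02 and 0.01 (adjusted p = 0.858 and 0.877). The replicate block alone gave 27 factors higher and 0 lower between the induced groups, 28 and 2 for 2 extra copies against uninduced cells, and 7 and 8 for no extra copy. Over all genes it gave 1177 and 1056, 1765 and 1675, and 1012 and 921 in the same order. The causes were not tested.

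Totals of 4165286 to 8872303 counts leave low factors imprecise: Eef1a2 had an SE of 0.40 (log2) between the induced groups and Eif4e3 0.24, so changes of the size seen in the other factors were not detectable there. With 3 libraries a group, a difference of about 0.1 in a well covered factor can fall on either side of the threshold.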
